A study of Mus musculus with 8 samples.

Results

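Early organoids (EO) were compared with differentiated organoids (DO) of the mouse cervix in Wnt-proficient medium, on 4 of the 8 single-colour arrays of the series. EO were collected 3 days and DO 2 weeks after cells had been seeded into Matrigel, a gel of basement membrane proteins. The tissue came from female wild-type BALB/c mice of 10 to 20 weeks of age, and the methods place these organoids in the ectocervix, where the sample labels give only the cervix. All 4 cultures received WNT3A- and RSPO1-conditioned medium together with EGF, FGF10, noggin, nicotinamide, N-acetylcysteine, the ROCK inhibitor Y-27632 and an inhibitor of the TGF-β receptor kinase in a basal medium. The arrays come from 2 mice, with an EO and a DO array from each. For mouse 1 the EO array was of passage 15 and the DO array of passage 4, and for mouse 2 they were of passage 10 and passage 1. Both EO arrays were thus of a later passage than both DO arrays, so that the age of the organoids and the passage of the culture cannot be told apart. The probes described are those that the scanner program marked as well above background on the 2 EO arrays, on the 2 DO arrays or on all 4. This held for 28575 of 55681 probes, and for 14900 of 24055 named genes.

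The squamous epithelium of the cervix is layered. Its basal cells rest on the basement membrane, express keratins 5 and 14 and divide, while the cells above them stop dividing and make keratins, small proline-rich proteins and other parts of the tough outer layer. Wnt proteins bind receptors at the cell surface and stabilise β-catenin, and cervical glands, which are lined by columnar cells with keratins 7, 8 and 18, depend on this signal, while the squamous layer grows without it.

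An array carried 62976 spots, and 59305 of them were for genes and other transcripts rather than controls. The share of probes well above background was 49.3% (mouse 1) and 50% (mouse 2) in EO, and 52.9% and 51.9% in DO. Before the arrays were put on a common scale, the 75th percentile of the processed intensity was 840 and 752 in EO against 494 and 512 in DO, so the EO arrays were the brighter ones. No spot was saturated (0 on all 4 arrays). Values of single genes are log2 intensities after background correction and quantile normalization, with mouse 1 given before mouse 2 in each group, and the number of arrays, 2 a group, limits their precision. Over the probes, the SD of the gap between replicates was 0.291 in EO and 0.489 in DO, and the arrays of a group differed by more than 1.5 at 80 probes in EO and at 491 in DO.

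The labelled tissue was checked against marker genes. Krt5, the keratin of basal squamous cells, had 17.97 and 17.91 in EO against 17.77 and 17.96 in DO, and its 2 probes differed in sign (0.08 and -0.77). Trp63, the transcription factor that maintains squamous basal cells, had 13.62 and 13.44 in EO against 13.76 and 14.51 in DO. Both genes were thus strongly expressed at either age and neither was called. Krt7 of columnar and junction cells had 15.96 and 15.75 in EO against 15.71 and 15.16 in DO, and Krt18, the partner of keratin 8, had 14.83 and 14.28 against 15.13 and 15.02. The squamous keratin Krt5 and the columnar keratins Krt7 and Krt18 were therefore present on all 4 arrays. Krt8, another columnar keratin, was low in EO, with 6.54 and 6.47 against 11.01 and 11.40 in DO, and is described below. Among epithelial adhesion genes, Cdh1 (E-cadherin) and Epcam were well above background on all 4 arrays, and their differences, 0.68 and 0.82, were not called. Several markers of other cell types were low or missing. Col1a2, Dcn (fibroblasts) and Cdh5 (endothelium) were well above background on 0 arrays, Ptprc (leukocytes) and Upk3b (mesothelium) on 1, and Foxj1 (ciliated cells) on 1 of each group. Col1a1 (fibroblasts) and Pecam1 (endothelium) were low but well above background on all 4 arrays, at 6.36 to 6.62 and 6.70 to 6.95. Col3a1 (fibroblasts) was so on 1 EO array and on both DO arrays. Other genes of such lists were well above background on all 4 arrays, among them Cd34, Itgam, Kdr, Twist2 and Msln, named after their values were seen, and whether other cells were present cannot be told from these markers.

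The first question is which genes differ between 3-day and 2-week organoids. A probe was called when its adjusted p in limma was under 0.05 and its difference, EO minus DO, lay beyond 1.5 on the log2 scale, which is 2.83-fold. Of 29423 probes tested, 61 were called higher in EO (0.207%) and 121 lower (0.411%), for 36 and 92 named genes. With 1 probe a gene, 32 of 14900 genes were called higher (0.215%) and 89 lower (0.597%). Among the called probes, the median difference was 1.87 for those higher and -1.96 for those lower, the largest rise was 3.28, and at the other end Stfa1 fell by 7.64. At an unadjusted p under 0.05, 6620 probes differed. The count depended on the processing: limma on the 4 arrays alone called 0 probes, with 6789 at an unadjusted p under 0.05, and scaling each array to its 75th percentile called 580. The number called also moved with single arrays: it was 2 without the EO array of mouse 1, 12 without that of mouse 2, 759 without the passage 4 DO array, 107 without the passage 1 DO array and 108 without either Wnt-deficient DO array. An exact permutation test of 2 arrays against 2 cannot give a two-sided p under 0.333, so that no such test of a single gene can pass, and the limma tests borrow their variance from all genes and from the 4 arrays in Wnt-deficient medium.

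The difference was also taken within each mouse. Beyond 1.5 in both mice were 56 probes higher in EO (0.197% of 28452) and 185 lower (0.650%), and by gene 29 higher (0.195% of 14847) and 140 lower (0.943%). Of the 182 called probes, 123 passed this limit in both mice. Mouse 1 alone had 101 probes higher and 362 lower, and mouse 2, with the passage 1 DO array, had 488 and 538. Over all 28452 probes, 70.8% had the same sign in both mice. The values of EO and DO did not overlap at 59.7% of the probes, and by gene 31.7% were apart with EO higher and 27.8% with EO lower, so that arrays of 1 group above those of the other are no mark of a single gene here.

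**Figure D1:**
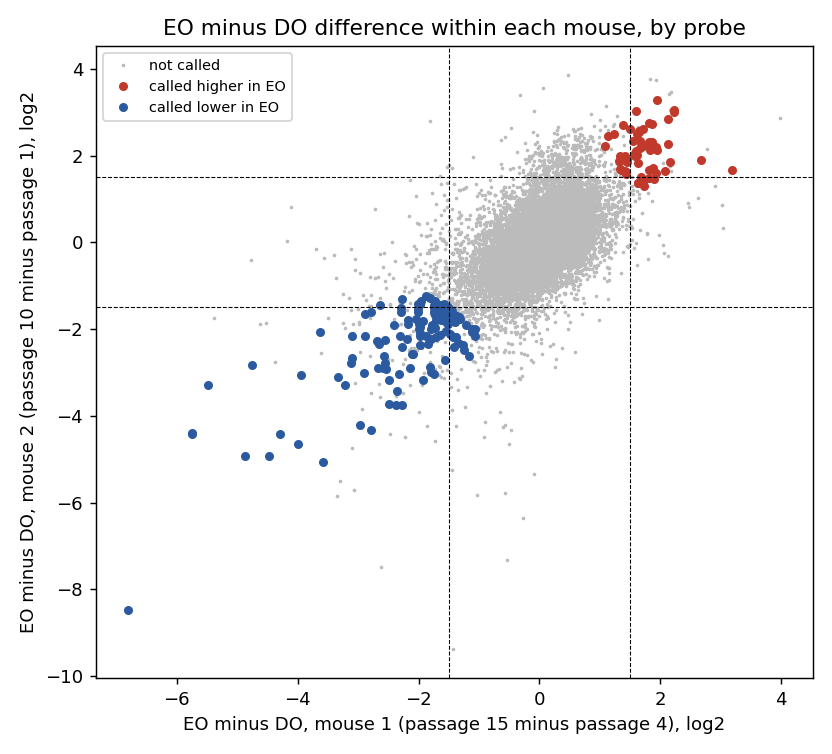
Difference between EO and DO (log2, EO minus DO) of each probe in mouse 1 (horizontal axis) and mouse 2 (vertical axis). Called probes with a value on all 4 arrays are in colour, 178 of the 182 called (61 higher and 121 lower in EO). Dashed lines mark 1.5 in each direction, and the called probes shown lie where both mice differ the same way.

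Since passages 1, 4, 10 and 15 run from DO to EO, the order of the arrays was compared with the order of passage. Such an order needs groups that are apart, as they were at 16988 probes, and 33.8% of these rose or fell in the exact order of passage. Among the called probes with a value on all 4 arrays it was 47.8% (85 of 178) and among those beyond 1.5 in both mice 54.4% (131 of 241). The passage 4 DO array lay between the passage 1 DO array and the mean of EO for 64.4% of the probes apart, for 74.2% of the called ones and for 75.5% of those beyond 1.5 in both mice. The called probes were chosen for a large difference between EO and DO, so that these shares do not separate passage from age. In Wnt-proficient medium no array holds EO of a low passage or DO of a high one, and the Wnt-deficient arrays, all of passage 2, differ in medium, mouse and slide, so that whether age or passage moved with these genes cannot be told apart.

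Among called genes, the 3 largest falls were in the gasdermin C and stefin families. Gasdermins are proteins that can form pores in the cell membrane once a protease cuts them, and the C family is known from skin and gut epithelium. Stefins are small inhibitors of cysteine proteases of the cathepsin type, and stefin A is a known product of squamous cells. Stfa1 (chr16:36285398-36285457, mm9) had 6.67 and 7.95 in EO against 13.47 and 16.43 in DO. The groups lay far apart, and the passage 1 DO array was the highest. It fell by 7.64 (standard error 0.91, adjusted p = 0.0194 by limma), and without the EO array of mouse 1 or of mouse 2 it was not called (adjusted p 0.138 and 0.0862). Cstdc5, a stefin gene of the same cluster, had 10.65 and 11.27 in EO against 14.23 and 16.33 in DO, again apart, and fell by 4.32 (adjusted p = 0.0282 by limma). Its call was absent without either EO array (adjusted p 0.188 and 0.136) and without any 1 Wnt-deficient array (0.0555 and 0.0587). Stfa3 had 8.90 and 10.02 against 11.83 and 13.87, a difference of -3.39 that passed 1.5 in both mice and was not called (adjusted p = 0.0566 by limma). Of the 10 stefin probes, which lie within 331 kb of chromosome 16, 7 were measured, that is well above background on the 2 arrays of a group. Of these 2 were called lower, beside 0.411% of all probes tested. In bulk RNA, fewer cells of a type and less RNA in each cell cannot be told apart, here or for any gene below.

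The gasdermin C genes fell together. Gsdmc (chr15:63608169-63608228) had 9.80 and 11.84 in EO against 15.54 and 16.26 in DO. The EO array of passage 10 was the nearer to DO, without overlap. It fell by 5.08 (standard error 0.63, adjusted p = 0.0203 by limma). Gsdmc4 had 7.57 and 8.76 in EO against 12.44 and 13.68 in DO and fell by 4.90 (adjusted p = 0.0157 by limma), and Gsdmc3 had 11.39 and 13.71 against 16.88 and 16.99 and fell by 4.39 (adjusted p = 0.0359 by limma). In both genes every DO array was above every EO array. Gsdmcl2 had 6.55 and 7.74 in EO against 10.18 and 9.79 in DO, and the pseudogene Gsdmcl-ps had 5.98 and 6.10, neither well above background, against 8.63 and 8.44, at least 4.89-fold lower in EO. The 7 probes of the family cover 149 kb of chromosome 15 and stand for 6 genes. Of these probes 6 were measured, 1 of them (Gsdmcl-ps) only through DO, and the other 5 were all called lower in EO, beside 0.411% of all probes tested. The family is made of close relatives. The longest run of bases shared by any pair of its probes was 15 of 60, and 25 of 60 in the stefins. These runs compare probes with each other, and whether a probe also binds RNA of a neighbour was not tested. Gasdermins of other families moved less. Gsdme had 7.42 and 7.01 in EO against 8.32 and 8.10 in DO, and its difference of -1.0 was under the fold limit. Like the other lists below, the list of gasdermins and stefins was chosen with earlier results of these data known. Its counts and median thus follow in part from that choice. Of its 18 genes on the array 13 were measured. Of these, 4 of 13 were called lower and 0 higher, beside 0.597% and 0.215% of all genes, and 5 passed -1.5 in both mice, beside 0.943%. The median difference was -1.0, beside 0.02 over all genes, and between -2.39 and -1.29 under the other scalings. Single arrays decide these calls. Without the EO array of mouse 1, 0 of the 4 called genes were called (adjusted p 0.093 to 0.138 by limma), without the EO array of mouse 2 or the passage 1 DO array 2 of 4, and without any 1 of the 4 Wnt-deficient arrays 3 of 4. All 4 kept their direction in these fits, with differences between -9.12 and -3.22.

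**Figure D2:**
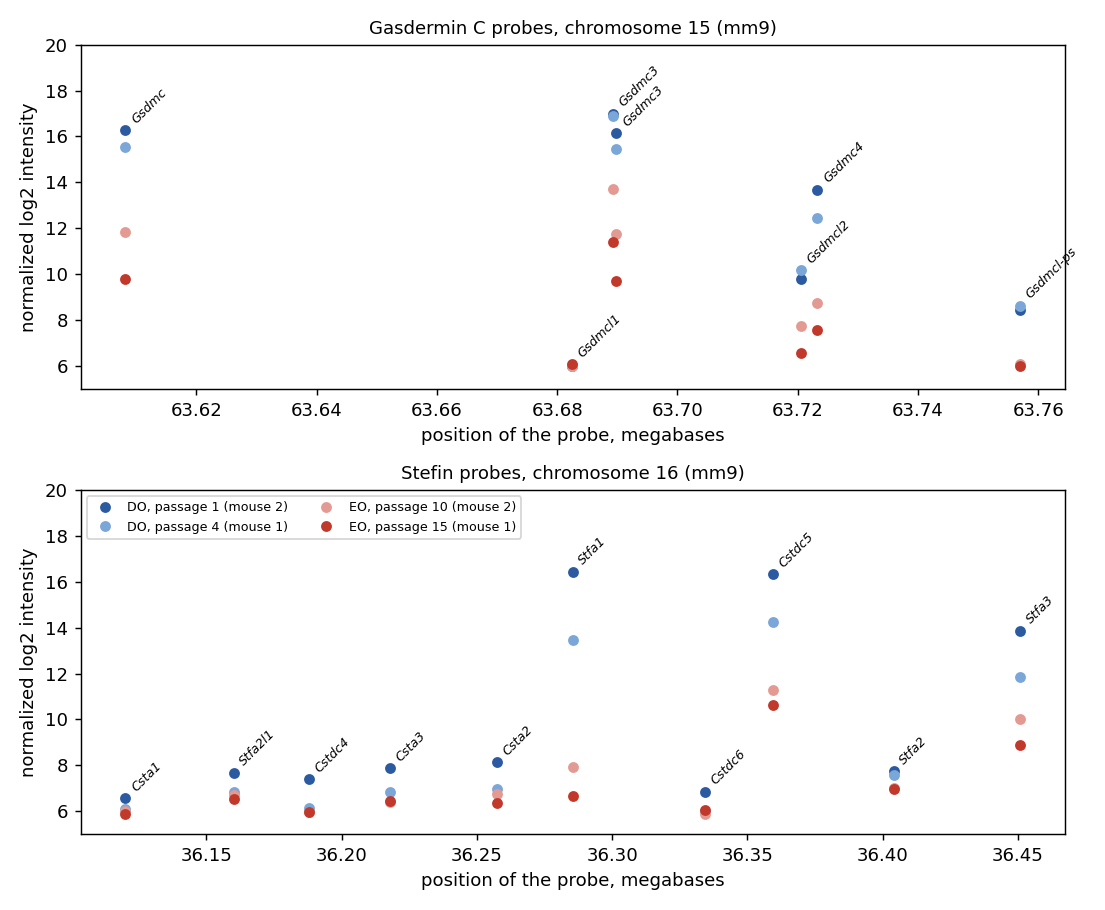
Log2 intensity (vertical axis) of the gasdermin C probes on chromosome 15 and the stefin probes on chromosome 16 by their position on mm9 (horizontal axis), with 1 point per array. The DO arrays lie above the EO arrays at the 6 measured gasdermin C probes, and Stfa1 has the widest gap, from 6.67 to 16.43.

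The median of the squamous differentiation genes was below 0, more so in mouse 2, and 2 of them were called. Krt4, the keratin of the suprabasal cells of wet squamous epithelia (chr15:101750158-101750736), had 7.64 and 7.83 in EO against 10.43 and 12.16 in DO. It fell by 3.56 (standard error 0.49, adjusted p = 0.0268 by limma) without overlap. Ivl, which encodes involucrin of the cornified envelope, had 10.73 and 10.53 against 12.14 and 12.93 and fell by 1.90 (adjusted p = 0.0360 by limma). Both groups of its arrays were apart. The small proline-rich protein gene Sprr1a, another envelope component, had 11.90 and 13.58 against 15.52 and 16.13, with a difference of -3.08 that was not called (adjusted p = 0.0540 by limma). Sprr2h of the same family had -2.97 and was not called either. Calml3, a calmodulin-like protein of squamous cells, had 6.50 and 7.02 against 8.98 and 11.43, a difference of -3.45 (adjusted p = 0.0600 by limma), while another of its probes differed by -1.27. These 3 genes passed -1.5 in both mice.

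Some genes of terminal differentiation were high on 1 DO array alone. Krt1, chosen after its values were seen, had 6.65 and 8.06 in EO against 6.92 and 14.42 in DO. Calm4, a calcium-binding protein of the outer epidermis chosen the same way, had 6.18 and 6.95 against 6.72 and 14.28. In both, the passage 4 DO array was as low as EO, and the groups overlapped. Sprr2d and Sprr2f, also chosen after their values were seen, were high on the passage 4 DO array instead, with 7.92 and 7.31 in EO against 12.02 and 6.49 in DO and with 8.34 and 8.39 against 11.9 and 8.75. Krt10, the partner of keratin 1, had 8.87 and 9.16 in EO against 9.46 and 10.95 in DO, a difference of -1.19 that was not called. Krt13, the partner of keratin 4, had 15.44 and 15.53 against 15.12 and 16.13, so that EO lay between the DO arrays. Lor (loricrin) differed by -1.12 and was not called. Tgm1, the transglutaminase that links envelope proteins, also chosen after its values were seen, went the other way with 11.79 and 11.81 in EO against 10.23 and 10.61 in DO (1.38, adjusted p = 0.0273 by limma), under the fold limit. Of the 41 genes of the list on the array, 32 were measured, 2 of 32 were called lower and 0 higher, beside 0.597% and 0.215% of all genes, and 4 passed -1.5 in both mice, beside 0.943%. EO was apart below DO for 10 of them and above for 3, beside 27.8% and 31.7% of all genes. Their median difference was -1.13, with -0.37 in mouse 1 and -1.10 in mouse 2, beside 0.02 over all genes. The 2 calls were absent without either EO array (adjusted p 0.143 to 0.199 by limma) or without any 1 Wnt-deficient array (0.0528 to 0.0627), and 1 of them held without the passage 1 DO array.

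Genes of the basal layer were also examined. Krt17, a keratin of basal and regenerating squamous cells, had 17.03 and 16.68 in EO against 15.62 and 14.70 in DO and rose by 1.70 (adjusted p = 0.0472 by limma). Its groups were apart. Krt14 had 17.75 and 17.54 against 16.48 and 17.06, a difference of 0.88 that was not called. Pdpn, a membrane glycoprotein of basal cells, had 10.26 and 7.79 against 13.05 and 11.27, a difference of -3.13 in the other direction (adjusted p = 0.161 by limma, not called). Another Pdpn probe differed by -1.28. Over the 16 basal genes, all measured, 1 was called higher and 1 (Dkk3) lower, beside 0.215% and 0.597% of all genes, with a median of 0.08. Both calls were absent without either EO array (adjusted p 0.121 to 0.260 by limma), and 1 of the 2 held without the passage 1 DO array or without any 1 Wnt-deficient array.

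Krt8, the keratin of simple and columnar epithelia, stood out among the columnar genes. The first of its 2 probes (chr15:101827138-101827197) had 6.54 and 6.47 in EO against 11.01 and 11.40 in DO. The arrays within each group were close and the groups far apart. It fell by 4.70 (standard error 0.80, adjusted p = 0.0435 by limma). A second Krt8 probe had 6.17 and 6.19, on neither EO array well above background, against 8.75 and 9.09, at least 6.39-fold lower in EO, and it was described only because DO was high. Gda, a guanine deaminase, had 9.08 and 9.50 against 11.10 and 11.11 and fell by 1.81 (adjusted p = 0.0452 by limma), while another probe of Gda differed by only -0.16. Cldn4, a tight junction protein chosen after its values were seen, had 10.82 and 10.95 against 12.25 and 12.50, just under the fold limit at -1.49. Muc16, a membrane mucin chosen the same way, was the other way round with 8.20 and 7.92 in EO against 6.98 and 6.65 in DO. Ltf (lactoferrin) passed 1.5 in both mice, also higher in EO, and was not called. Of 26 columnar genes on the array 21 were measured, 2 of 21 were called lower and 0 higher, beside 0.597% and 0.215% of all genes, and the median difference was -0.60 beside 0.02 over all genes. Prom1, Cldn3 and Lcn2 were well above background on no EO array and were measured only through DO, and Muc4 only through EO. The direction of these genes follows from that choice, and Lcn2 is the gene at the median, so that the median rests on it. Neither call held without the passage 1 DO array (adjusted p 0.142 and 0.143 by limma) or without either EO array (0.170 to 0.249), and 1 of 2 held without the passage 4 DO array, where Gda was not called (0.0529), or without any 1 Wnt-deficient array.

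Further large falls came from genes of unlike function. Pdlim4 (chr11:53868434-53868493), an adaptor of the actin cytoskeleton with a PDZ and a LIM domain, had 8.10 and 7.86 in EO against 12.10 and 12.51 in DO. Its arrays were close within each group, and it fell by 4.33 (standard error 0.18, adjusted p = 0.00123 by limma). It was the 1 called probe whose call held without each of the 8 arrays, with adjusted p-values up to 0.0333. Nccrp1, an F-box-like protein of squamous epithelia, had 8.18 and 9.17 against 12.47 and 13.60 and fell by 4.36 (adjusted p = 0.0157 by limma). Dkk3, a secreted glycoprotein related to the Dickkopf Wnt inhibitors, had 7.89 and 7.66 against 10.85 and 11.88 and fell by 3.59 (adjusted p = 0.0184 by limma). Ptprr, a tyrosine phosphatase that acts on MAP kinases, had 7.34 and 7.22 against 11.28 and 10.28 and fell by 3.50 (adjusted p = 0.0106 by limma). In each of these the groups were apart by more than the replicates differed. A probe for the 18S ribosomal RNA, Rn18s, had 12.59 and 14.44 against 17.35 and 17.26 and fell by 3.79 (adjusted p = 0.0321 by limma). Of the 12 largest falls, 1 (Pdlim4) was called without the EO array of mouse 1 (adjusted p 0.0333 to 0.226 by limma), 4 without that of mouse 2 (0.0233 to 0.207), 8 without the passage 1 DO array or either Wnt-deficient EO array and 7 without either Wnt-deficient DO array.

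For some genes EO gave only an upper limit, since neither EO array was well above background. Besides Krt8 and Gsdmcl-ps these were Mical1, an oxidase of actin filaments (at least 5.21-fold lower in EO), Cadps, a factor of vesicle release (4.80-fold), Adamts1, a secreted metalloprotease (3.83-fold), Crip1, a small LIM protein (3.48-fold), Zfp105, a zinc finger protein (3.00-fold), and Cdk14, a cyclin-dependent kinase (2.58-fold). Each was well above background on both DO arrays. In the other direction there was 1 such probe, 2310076G05Rik, with 7.57 and 7.77 in EO against 6.16 and 6.13 in DO, at least 2.87-fold higher in EO. Of all probes described, 1248 were well above background on both DO arrays and no EO array, and 311 on both EO arrays and no DO array. Such probes are described only because of the group in which they are high, so that their direction follows from that choice and only the bounds are given.

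**Figure D3:**
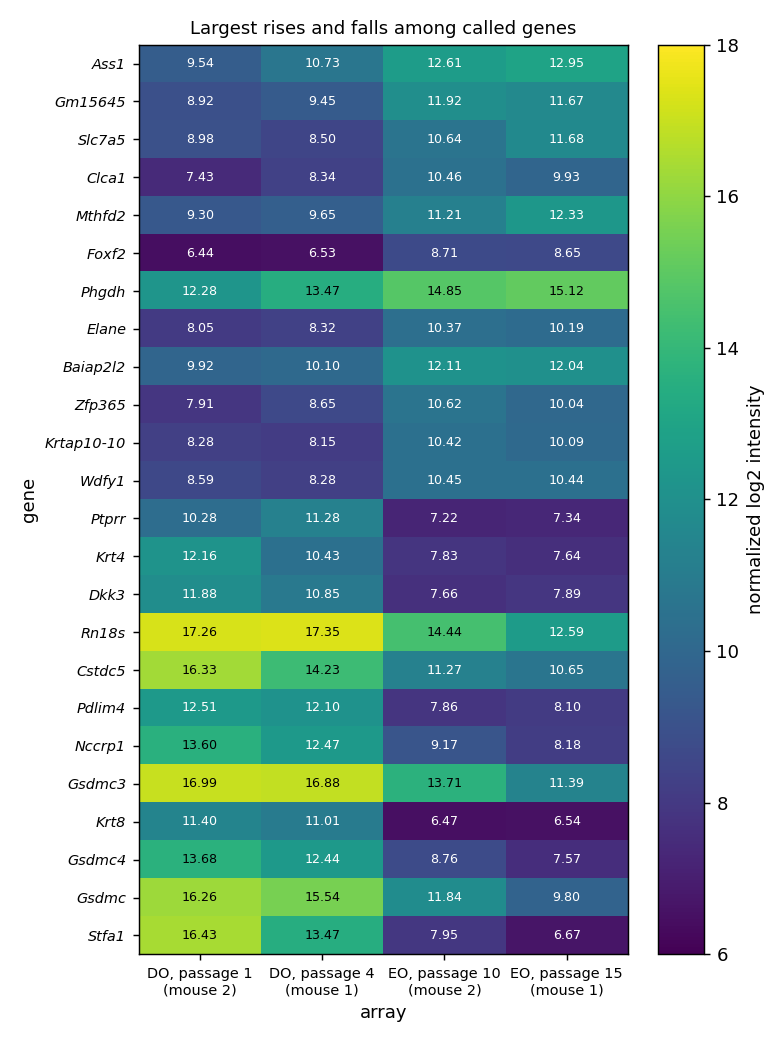
Log2 intensity of the 12 genes with the largest rises and the 12 with the largest falls among called genes well above background on all 4 arrays, with the value printed in each cell and the arrays in the order of passage (1, 4, 10 and 15). DO arrays are the 2 columns of low passage, and Stfa1 spans the widest range, from 6.67 to 16.43.

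Genes of amino acid supply and other targets of ATF4 were among those that rose in EO, with 8 of 44 called higher, beside 0.215% of all genes. The choice of this list was also made with earlier results of these data known. Cells short of amino acids raise the transcription factor ATF4, which turns on amino acid transporters, enzymes that make serine, glycine and asparagine, and the synthetases that load amino acids onto transfer RNA. Slc7a5 (chr8:124405136-124405195), the transporter of large neutral amino acids, had 11.68 and 10.64 in EO against 8.5 and 8.98 in DO. It rose by 2.42 (standard error 0.37, adjusted p = 0.0342 by limma), while a second probe differed by 0.43. Mthfd2 (chr6:83256518-83256577), a mitochondrial enzyme of folate metabolism, had 12.33 and 11.21 against 9.65 and 9.30 and rose by 2.29 (adjusted p = 0.0342 by limma). Its EO arrays were both above its DO arrays, and mouse 1 had the larger gap. Both calls were absent without any 1 array but the passage 4 DO array, with adjusted p-values between 0.0510 and 0.171.

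The pathway that makes serine rose in all its steps. Phgdh, the first enzyme, had 15.12 and 14.85 in EO against 13.47 and 12.28 in DO and rose by 2.11 (adjusted p = 0.0402 by limma), and its 3 probes lay between 2.11 and 2.30. The probe of these values took its name from the files, which place it on chr17:53337968-53338027. Whether it also binds RNA of another gene was not tested. Psat1, the second, had 14.87 and 14.35 against 13.06 and 12.86 and rose by 1.65 (adjusted p = 0.0456 by limma), while another of its probes differed by 1.34. Psph, the last, had 12.71 and 12.33 against 11.07 and 10.95 and rose by 1.51 (adjusted p = 0.0374 by limma). In all 3 enzymes the groups were apart. Asns, which makes asparagine, had 15.49 and 14.92 against 13.59 and 13.46 and rose by 1.68 (standard error 0.21, adjusted p = 0.0203 by limma). The isoleucine synthetase gene Iars had 13.49 and 13.05 against 11.86 and 11.68 and rose by 1.5 (adjusted p = 0.0213 by limma), and the methionine synthetase gene Mars1 had 12.11 and 11.55 against 10.39 and 10.24 and rose by 1.52 (adjusted p = 0.0243 by limma). The EO arrays of all of these were above their DO arrays. None of the 6 calls held without the EO array of mouse 1 (adjusted p 0.122 to 0.246 by limma) or of mouse 2 (0.0562 to 0.178), and 1 of them, Phgdh, held without the passage 1 DO array (0.0469). Aldh18a1, the first enzyme of proline synthesis, had 11.44 and 10.53 against 9.28 and 8.78, a difference of 1.96 that passed 1.5 in both mice and was not called (adjusted p = 0.0561 by limma).

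All 44 genes of the list were measured. Of these, 8 were called higher and 0 lower, beside 0.215% and 0.597% of all genes, 4 passed 1.5 in both mice, beside 0.195%, and 33 had EO apart above DO and 0 below, beside 31.7% and 27.8% of all genes. The median difference was 1.0 beside 0.02 over all genes, with 1.14 in mouse 1 and 0.69 in mouse 2. Atf4 itself, chosen after its values were seen, had 16.74 and 16.41 in EO against 15.73 and 15.76 in DO, without overlap and under the fold limit. Chac1, a glutathione-degrading target of ATF4 chosen the same way, had 13.61 and 12.22 against 10.57 and 11.88, where mouse 2 hardly differed. Slc7a11, the cystine transporter, had 11.70 and 10.73 against 11.06 and 11.74, with overlap, and thus did not move with the list. With each array scaled to its 75th percentile, 15 of the 44 genes were called higher in place of 8. The calls of the 8 genes rest on single arrays. Without the EO array of mouse 1 (adjusted p 0.122 to 0.246 by limma), without that of mouse 2 (0.0510 to 0.178) or without either Wnt-deficient DO array (0.0506 to 0.0793) 0 of 8 were called, without either Wnt-deficient EO array 3 and without the passage 1 DO array 1, while all kept a positive difference of at least 1.24.

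Since these genes moved together, their promoters were searched for the core of the element that ATF4 binds with its partners, TGATGNAA, on both strands of the 250 bases before the start of the gene (RefSeq, GRCm38.p6). Of the 36 genes of the list with a promoter in that table, 10 held it (27.8%), beside 2.45% of the promoters of 11175 described genes and 3.91% of all 27025 promoters. The list holds known targets of ATF4, so that a raised share follows from how its genes were chosen. Of the 3 genes beyond 1.5 in both mice with a promoter 0 held it, and of the 7 called genes 1 held it, Asns, which is printed because its promoter is the best known case of this element. The match lies 23 bases before the start, in capitals, on chr6:7693210-7693459 (minus strand, GRCm38.p6). A match of letters is a description and shows no binding.
Asns: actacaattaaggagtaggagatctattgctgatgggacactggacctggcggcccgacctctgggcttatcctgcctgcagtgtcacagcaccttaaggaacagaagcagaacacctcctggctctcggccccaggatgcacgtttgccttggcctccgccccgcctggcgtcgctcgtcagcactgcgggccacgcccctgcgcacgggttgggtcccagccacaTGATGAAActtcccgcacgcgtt

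Further genes that rose in EO were scattered over several functions. Ass1 (chr2:31375998-31376057), the enzyme that joins citrulline and aspartate on the way to arginine, had 12.95 and 12.61 in EO against 10.73 and 9.54 in DO and rose by 2.64 (adjusted p = 0.0367 by limma). Foxf2 (chr13:31723139-31723198), a forkhead transcription factor best known from mesenchyme, had 8.65 and 8.71 against 6.53 and 6.44 and rose by 2.19 (standard error 0.16, adjusted p = 0.00960 by limma). Its replicates differed by less than 0.1, and the groups were far apart. Odc1, the enzyme that starts polyamine synthesis and a known target of MYC, had 14.97 and 15.15 against 13.42 and 12.80 and rose by 1.95 (standard error 0.21, adjusted p = 0.0175 by limma), with 4 probes between 1.95 and 2.10. Fosl1, an AP-1 transcription factor downstream of MAP kinase, had 9.47 and 9.90 against 8.23 and 7.40 and rose by 1.87 (adjusted p = 0.0338 by limma). In both the EO arrays were above the DO arrays. Msx1, a homeobox factor, had 10.07 and 9.60 against 8.64 and 8.03 and rose by 1.5 (adjusted p = 0.0444 by limma). These 5 calls were absent without the EO array of mouse 1 (adjusted p 0.0868 to 0.239) or of mouse 2 (0.0562 to 0.185), and those of Ass1, Fosl1 and Msx1 also without the passage 1 DO array (0.0638 to 0.136) or any 1 Wnt-deficient array (0.0528 to 0.0786).

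The other members of the 12 largest rises were less easy to read by function. Clca1, a secreted metalloprotease that regulates chloride channels, had 9.93 and 10.46 in EO against 8.34 and 7.43 in DO and rose by 2.31 at 1 probe, while its other probe differed by 0.17. Elane, neutrophil elastase, had 10.19 and 10.37 against 8.32 and 8.05 and rose by 2.10, and Baiap2l2, which shapes membranes at microvilli, had 12.04 and 12.11 against 10.10 and 9.92 and rose by 2.06. Wdfy1, an endosomal adaptor, rose by 2.01 at 1 of 4 probes and differed by between -0.18 and 0.16 at the others, 2 of them with the opposite sign. The remaining 3, Gm15645 (2.61), Zfp365 (2.05) and Krtap10-10 (2.04), also had both EO arrays above both DO arrays. Of the 12 genes, 0 were called without the EO array of mouse 1 (adjusted p 0.0868 to 0.227 by limma) or of mouse 2 (0.0510 to 0.217), 5 without the passage 1 DO array, 11 without the passage 4 DO array, 6 without either Wnt-deficient EO array and 5 without either Wnt-deficient DO array.

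The median of the cell cycle genes was higher in EO, and the gap was wider in mouse 2, with the passage 1 DO array. The list holds genes of DNA replication and mitosis, whose RNA is high in dividing cells. Of 40 genes 38 were measured, 0 were called in limma, and 26 were higher and 0 lower at an unadjusted p under 0.05, beside 2034 and 1739 of all 14899 genes. The lowest adjusted p was 0.0805, of Cdc20. The median difference was 1.14 beside 0.02 over all genes, but it was 0.36 in mouse 1 and 1.97 in mouse 2, and no gene passed 1.5 in both mice (0 of 38). Over the list, the median log2 intensity was 12.58 and 12.75 in EO, 12.29 on the passage 4 DO array and 10.80 on the passage 1 DO array. For 37 of the 38 genes the passage 1 DO array was the lowest of the 4. Mki67, the antigen of proliferating cells named here after its values were seen, had 14.27 and 14.51 in EO against 13.90 and 12.55 in DO, and Plk1, a mitotic kinase named the same way, had 14.00 and 14.15 against 13.14 and 11.18. Without the passage 4 DO array, 26 of the 38 genes were called higher.

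Genes of growth had smaller medians. Of 29 genes of MYC and ribosome biogenesis, all measured, 1 (Odc1) was called higher and 0 lower, beside 0.215% and 0.597% of all genes, 23 had EO apart above DO and 2 below, beside 31.7% and 27.8%, and the median was 0.48, with 0.45 in mouse 1 and 0.55 in mouse 2. The call of Odc1 was absent without the EO array of mouse 1 (adjusted p 0.120 by limma) or of mouse 2 (0.109). Myc itself had 11.78 and 11.30 against 11.28 and 10.83, a gap within the spread of the replicates. Of 28 genes of sterol synthesis, 0 were called in limma and 13 were higher and 0 lower at an unadjusted p under 0.05, beside 25.3% of all genes in either direction. EO was apart above DO for 17, beside 31.7% of all genes, and the median was 0.39. Cell cycle inhibitors and p53 targets had 0 of 16 called in limma and a median of 0.23. At an unadjusted p under 0.05, 4 were higher and 0 lower, that is 25% beside 25.3% of all genes. Genes of endoplasmic reticulum stress had 0 of 22 called and a median of 0.25. At an unadjusted p under 0.05, 7 were higher and 0 lower, that is 31.8% beside 25.3% of all genes.

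The median of the interferon-stimulated genes was below 0, and no gene was called. Cells turn these genes on when interferon binds its receptor, and many of their products block viruses. Of 40 genes 35 were measured, 0 were called in limma, and 0 were higher and 7 lower at an unadjusted p under 0.05, that is 20% beside 25.3% of all genes. Of the list, 8 passed -1.5 in both mice, beside 0.943% of all genes, and 27 had EO apart below DO and 1 above, beside 27.8% and 31.7%. Several genes, among them Oasl2, Mx2 and Oas3, were not well above background on both EO arrays and were measured through DO alone. Their direction, and so part of these counts and of the median, follows from that choice. The median difference was -1.17 beside 0.02 over all genes, with -0.70 in mouse 1 and -1.61 in mouse 2, and it lay between -2.18 and -1.31 under the other scalings. The median gap between replicates was 0.43 in EO and 0.63 in DO, but 3.49 between the Wnt-deficient DO arrays, which share the variance estimate in limma, and without either of those arrays 2 genes were called lower. The EO array of passage 10 was the lowest for 31 of the 35 genes and the passage 1 DO array the highest for 26.

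Among the 8 genes, Apol9b, a member of the apolipoprotein L family, had 8.20 and 6.97 in EO against 11.54 and 12.82 in DO, a difference of -4.60 (adjusted p = 0.151 by limma). Its neighbour Apol9a differed by -4.40, and by -1.52 at another probe. Oas1a, which makes the short adenylate chains that activate RNase L, had 8.57 and 8.11 against 11.67 and 12.84, a difference of -3.92 (adjusted p = 0.219 by limma). The groups of both genes were apart, and neither was called. Isg15, a ubiquitin-like modifier, had 8.89 and 8.19 against 10.84 and 11.47, a difference of -2.61 (adjusted p = 0.304 by limma), while another of its probes differed by -1. Xaf1 (-3.36), Usp18 (-2.95), the proteasome subunit gene Psmb8 (-1.96) and Oasl2 completed the set. Oasl2 had 6.93 and 5.95 in EO against 8.78 and 10.19 in DO. It was well above background on only 1 EO array and was measured through DO, so that no exact difference is given for it. Irf9, an interferon regulatory factor named after its values were seen, had 10.61 and 9.36 in EO against 12.05 and 13.21 in DO.

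The promoters of this list were searched for GAAANNGAA, the core of the interferon-stimulated response element, in the same way. Of 26 genes of the list with a promoter, 12 held it (46.2%), beside 7.07% of described genes and 8.18% of all. This list too was chosen for its known regulation. Of the 7 genes beyond -1.5 in both mice that have a promoter, 4 held it: Apol9a, Apol9b, Isg15 and Oas1a. The promoters of 3 of them are printed, with the matches in capitals, to show the repeated GAAA units of this element close to the start. They lie on chr15:77728822-77729071 (Apol9b, plus strand), chr4:156200819-156201068 (Isg15, minus strand) and chr5:120907526-120907775 (Oas1a, minus strand) of GRCm38.p6. For the cell cycle list, TTTGAA, the core of the element that times genes to mitosis, was in 10 of 32 promoters (31.2%), beside 13.1% of described genes and 18.3% of all.
Apol9b: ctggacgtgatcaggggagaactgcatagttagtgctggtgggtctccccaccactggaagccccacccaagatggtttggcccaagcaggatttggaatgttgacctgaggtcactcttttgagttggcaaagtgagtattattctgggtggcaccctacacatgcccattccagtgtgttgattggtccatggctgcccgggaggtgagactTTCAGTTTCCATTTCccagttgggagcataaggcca
Isg15: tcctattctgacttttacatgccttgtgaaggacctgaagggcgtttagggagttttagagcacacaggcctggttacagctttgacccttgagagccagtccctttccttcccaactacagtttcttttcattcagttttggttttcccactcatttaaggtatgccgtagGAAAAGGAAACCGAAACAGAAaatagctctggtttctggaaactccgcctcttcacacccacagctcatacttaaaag
Oas1a: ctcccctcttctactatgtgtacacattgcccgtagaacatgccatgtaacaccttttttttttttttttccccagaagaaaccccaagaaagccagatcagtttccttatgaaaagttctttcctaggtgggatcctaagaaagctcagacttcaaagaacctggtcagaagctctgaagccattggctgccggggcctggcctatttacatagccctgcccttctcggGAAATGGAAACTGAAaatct

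**Figure D4:**
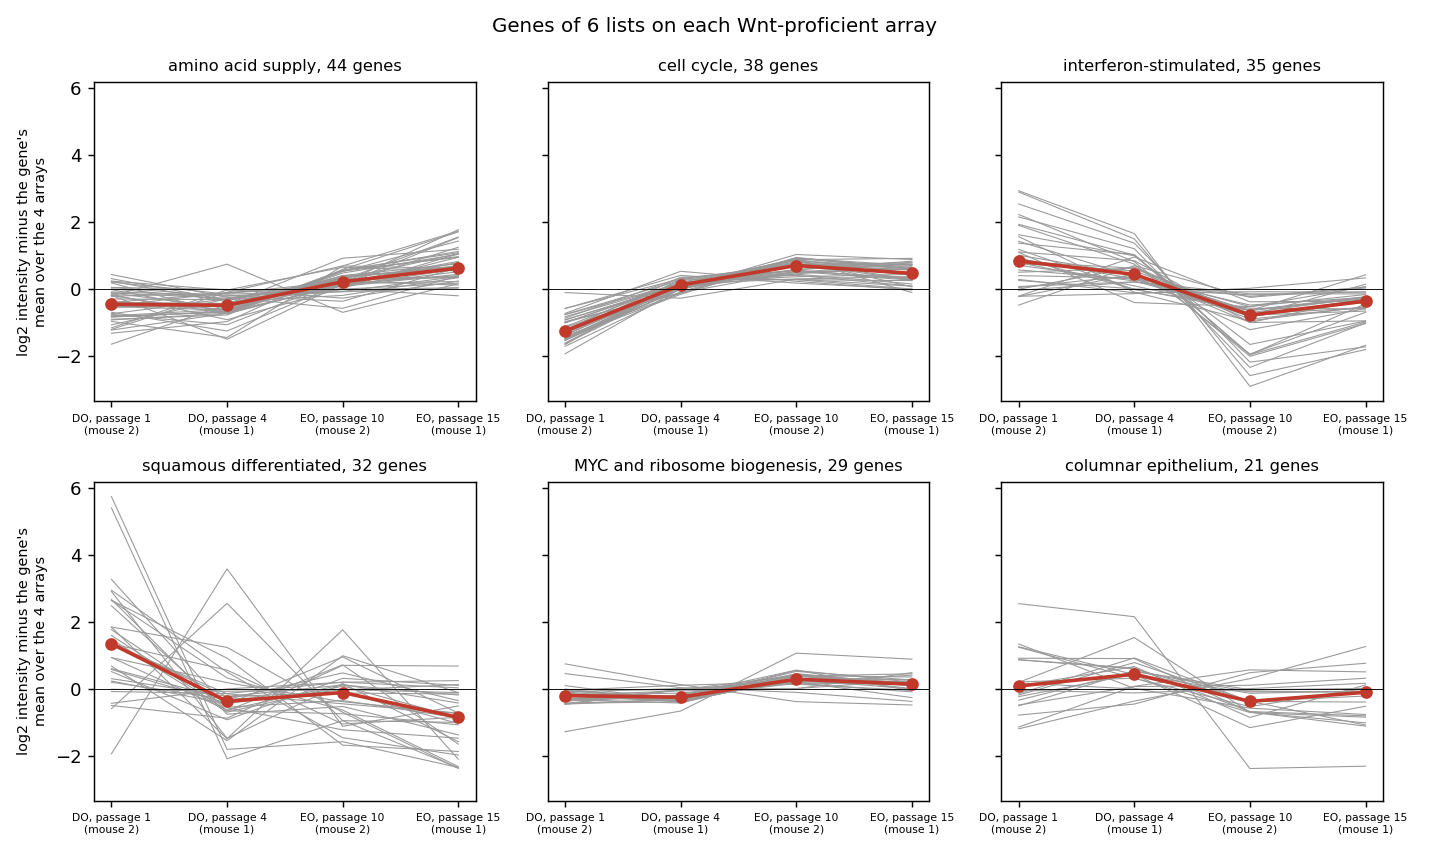
Each measured gene of 6 lists on the 4 arrays in the order of passage, as its log2 intensity minus its own mean over the 4 arrays (vertical axis), with the median of the list in red. The cell cycle list (38 genes) drops at the passage 1 DO array, the list of amino acid supply and ATF4 targets (44 genes) is higher on both EO arrays, and the interferon list (35 genes) is lowest on the passage 10 EO array.

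Of the genes of retinoic acid, 2 were called. Retinoic acid, made from vitamin A by aldehyde dehydrogenases of the ALDH1A family, keeps cervical epithelium from turning squamous. Aldh1a1 had 8.67 and 9.40 in EO against 11.35 and 11.68 in DO and fell by 2.48 (adjusted p = 0.0175 by limma). Aldh1a3, a second enzyme of this step, had 8.29 and 8.29 against 11.51 and 10.25, a difference of -2.59 that was not called (adjusted p = 0.0641 by limma). Crabp2, which carries retinoic acid to its receptors, had 11.21 and 10.82 against 12.27 and 12.98 and fell by 1.61 (adjusted p = 0.0390 by limma). All 3 genes were apart. Rarb, a receptor and itself a target of retinoic acid, had 7.38 and 6.50 against 10.63 and 8.36, a difference of -2.55 (adjusted p = 0.104 by limma, not called). Another Rarb probe differed by -1.06. Of 16 genes on the array 11 were measured, 2 of 11 were called lower and 0 higher, beside 0.597% and 0.215% of all genes, 3 passed -1.5 in both mice, beside 0.943%, and the median was -0.35. Both calls were absent without either EO array (adjusted p 0.0510 to 0.207 by limma) or without the passage 1 DO array (0.0540 and 0.107), and 1 was absent without any 1 Wnt-deficient array.

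The 2 lists of Wnt pathway genes had medians of 0.06 and -0.10, in a medium that holds WNT3A and RSPO1 at both ages. Of 24 feedback and target genes 17 were measured, and 1 of 17 was called lower, beside 0.597% of all genes. This was Tnfrsf19, a membrane receptor of the TNF family. It had 9.02 and 9.39 in EO against 11.30 and 13.12 in DO and fell by 3.01 (adjusted p = 0.0472 by limma), while another of its probes differed by -0.73. Its groups were apart, and its call was absent without either EO array (adjusted p 0.250 and 0.199), without the passage 1 DO array (0.0513) and without any 1 Wnt-deficient array (0.0771 to 0.0775). Axin2, the common feedback inhibitor, chosen after its values were seen, had 7.42 and 7.65 against 7.41 and 7.57, with full overlap. Of the 17 genes, 3 were higher and 3 lower at an unadjusted p under 0.05 in limma, that is 35.3% beside 25.3% of all genes. The median of the list was 0.06, and under the other scalings it lay between -0.16 and 0.08, so that its sign flips. Of 49 ligands, receptors and secreted modulators 31 were measured, 1 (Dkk3) was called lower and 0 higher, beside 0.597% and 0.215% of all genes, and 11 were lower and 3 higher at an unadjusted p under 0.05, that is 45.2% beside 25.3% of all genes, with a median of -0.10. The call of Dkk3 was absent without the EO array of mouse 1 (adjusted p 0.134 by limma) or of mouse 2 (0.121). The R-spondin receptors Lgr5 and Lgr6, named after their values were seen, had 6.56 and 6.58 against 7.09 and 7.70 and 10.20 and 9.21 against 9.38 and 7.72, and neither was called.

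Of the TGF-β and BMP genes, 29 of 33 were measured, and 2 were called lower and 0 higher, beside 0.597% and 0.215% of all genes. Bmp4, a bone morphogenetic protein, had 8.60 and 8.57 in EO against 11.09 and 12.29 in DO and fell by 3.10 (adjusted p = 0.0367 by limma). Fstl1, a secreted protein that binds BMPs, had 7.51 and 7.12 against 10.06 and 9.36 and fell by 2.40 (adjusted p = 0.0157 by limma). Both were apart. Fst (follistatin), an activin inhibitor named after its values were seen, went the other way in both mice, with 10.01 and 11.55 against 9.54 and 7.68, and was not called. The median of this list was -0.07, and it changed sign under the other scalings, from -0.09 to 0.10. Both calls were absent without either EO array (adjusted p 0.0895 to 0.212 by limma), and 1 of 2 without the passage 1 DO array or either Wnt-deficient EO array. In the Notch pathway 26 of 32 genes were measured, 0 were called in limma, and the median was 0.04. At an unadjusted p under 0.05, 1 was higher and 0 lower, that is 3.85% beside 25.3% of all genes. Of 41 genes of EGF receptor and MAP kinase signalling 38 were measured, 1 of 38 (Fosl1) was called higher and 0 lower, beside 0.215% and 0.597% of all genes, and the median was 0.07. Ereg (epiregulin), a ligand of the EGF receptor chosen after its values were seen, had 12.90 and 13.40 in EO against 12.07 and 11.39 in DO. The call of Fosl1 was absent without either EO array (adjusted p 0.142 and 0.185 by limma), without the passage 1 DO array (0.0638) and without any 1 Wnt-deficient array (0.0591 and 0.0627).

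Transcription factors of the reproductive tract moved in both directions. Of 31 genes 23 were measured, 2 were called higher (Foxf2 and Msx1) and 1 lower, beside 0.215% and 0.597% of all genes, and 14 had EO apart below DO and 2 above, beside 27.8% and 31.7%, with a median of -0.63. Hoxd11, a HOX gene of the posterior body, had 8.19 and 7.86 in EO against 9.43 and 10.34 in DO and fell by 1.86 (adjusted p = 0.0363 by limma), while another of its probes differed by -0.56. Tbx2, a T-box repressor, differed by -2.06, passed -1.5 in both mice and was not called. Pgr, the progesterone receptor, chosen after its values were seen, had 5.88 and 5.72 in EO, not well above background, against 7.34 and 10.98 in DO, so that the passage 1 DO array was far above the rest. Of the 3 calls, 0 were made without either EO array (adjusted p 0.0562 to 0.239 by limma), and 1 without the passage 1 DO array or any 1 Wnt-deficient array.

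Genes of low oxygen and glycolysis differed little except at the top. Adm (adrenomedullin), a peptide hormone induced by low oxygen, had 7.80 and 8.57 in EO against 10.69 and 11.57 in DO and fell by 2.95 (adjusted p = 0.0182 by limma). Slc16a3, the lactate exporter, had 9.93 and 12.06 against 14.55 and 13.93, a difference of -3.25 beyond the limit in both mice and not called (adjusted p = 0.105 by limma). Both genes were apart. Of 31 genes, all measured, 1 was called lower and 0 higher, beside 0.597% and 0.215% of all genes, with a median of -0.13, and the call of Adm was absent without either EO array (adjusted p 0.123 and 0.0601 by limma). Of 28 redox genes 27 were measured, 1 of 27 (Aldh1a1) was called lower and 0 higher, beside the same shares, with a median of 0.31, and that call was absent without either EO array (0.116 and 0.0510) or without the passage 1 DO array (0.0540). Gsta3, a glutathione transferase, had 11.32 and 11.75 in EO against 9.48 and 7.97 in DO, a difference of 2.81 beyond 1.5 in both mice and not called (adjusted p = 0.0788 by limma). Inflammatory and antimicrobial genes had 28 of 46 measured and 0 called in limma. At an unadjusted p under 0.05, 0 were higher and 3 lower, that is 10.7% beside 25.3% of all genes. Their median was -0.01 and changed sign between scalings, from -0.22 to 0.05. Beyond 1.5 in both mice were Ltf (1.56, higher in EO), the chemokine gene Cxcl15 (-2.48) and the defensin gene Defb1 (-1.71), beside 0.195% of all genes higher and 0.943% lower.

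Lists of cell types were read on each array, since the share of a cell type may move with the groups. Of 41 genes of differentiated squamous cells, 26 and 34 were well above background in EO against 32 and 37 in DO, and their summed intensity was 159411 and 239040 against 161841 and 425147. By the intensity of its probe, which does not rank genes exactly, the most abundant was Krt13 or Krt16 in EO, Sprr1a on the passage 4 DO array and Krt16 on the passage 1 DO array, which had the highest sum of the 4. All 16 basal genes were well above background on each array, with sums of 1074097 and 1078280 in EO against 805053 and 967380 in DO and Krt5 as the brightest, level with Krt15 on the passage 1 DO array (17.96 and 17.97). Of 26 columnar genes, 18 and 18 were well above background in EO against 20 and 21 in DO, with sums of 399042 and 362320 against 430641 and 294283, led by Wfdc2 or, on the passage 1 DO array, Krt19. The epithelial sums thus overlapped between EO and DO except for the basal list, where both EO arrays were higher. All 10 genes of simple epithelium adhesion were measured, 0 were called in limma, and the median was 0.05. At an unadjusted p under 0.05, 2 were higher and 0 lower, that is 20% beside 25.3% of all genes.

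Genes of other cell types were read in the same way. Of 20 stromal genes, 6 and 4 were well above background in EO against 8 and 7 in DO, with summed intensities of 3173 and 2151 against 3748 and 3362, led by Twist2. The collagen gene Col1a1 stayed between 6.36 and 6.62 on all 4 arrays. Tagln, an actin-binding protein of smooth muscle, had 9.74 and 9.77 in DO, while both EO values were missing, so that it was not compared. Of the other 7 stromal genes measured, 0 were called in limma and 0 differed at an unadjusted p under 0.05, beside 25.3% of all genes. Their median was 0.06 and changed sign between scalings, from -0.37 to 0.09. Of 10 endothelial genes, 4 and 4 were well above background in EO against 4 and 3 in DO (sums 1026 and 992 against 1470 and 1369, led by Kdr). Of the 4 measured 0 were called in limma, with 2 lower at an unadjusted p under 0.05, beside 25.3% of all genes, and a median of -0.20. Of 10 ciliated cell genes, 4 and 4 in EO and 5 and 4 in DO were well above background (sums 1143 and 1231 against 1219 and 905, led by Rsph1), and of 3 measured 0 were called or differed at an unadjusted p under 0.05, with a median of 0.13 in limma. Over the 18 stromal genes with a value on all 4 arrays, the sums were 3047 and 2151 in EO against 2796 and 2372 in DO, and thus overlapped. The part of the endothelial sums, which were higher in DO, in the genes described above was not tested.

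Of 11 mesothelial genes, 5 and 4 were well above background in EO and 5 and 4 in DO. Their sums, 201444 and 129143 against 202998 and 105058, were led by Msln or Krt19, and overlapped. Of the 4 measured, 0 were called in limma and 0 differed at an unadjusted p under 0.05, beside 25.3% of all genes, with a median of 0.49. Msln (mesothelin) had 16.41 and 16.28 in EO against 16.28 and 14.73 in DO, high on all 4 arrays while Upk3b was well above background on only 1. Cd34 and Itgam, named after their values were seen, were high on all 4 arrays, with 15.34 and 13.58 in EO against 14.12 and 12.7 in DO and with 11.2 and 10.96 against 11.76 and 11.73. Of 19 immune genes, 12 and 11 were well above background in EO against 11 and 11 in DO, with sums of 9945 and 9480 against 16960 and 12225, led by Ly6g in EO, Cd14 on the passage 4 DO array and H2-Ab1 on the passage 1 DO array. Of 11 measured, 1 was called lower and 0 higher, beside 0.597% and 0.215% of all genes, with a median of -0.13. This was H2-Ab1, a chain of the class II molecule that presents antigens and that interferon can also induce in epithelium, with 9.50 and 9.58 in EO against 11.59 and 12.16 in DO (-2.33, adjusted p = 0.0342 by limma). Its call was absent without either EO array (adjusted p 0.210 and 0.178), without the passage 1 DO array (0.123) or without either Wnt-deficient DO array (0.0515). Cd68, a macrophage gene named after its values were seen, went the other way with 10.96 and 11.19 in EO against 9.88 and 8.95 in DO (1.66, adjusted p = 0.0527 by limma, not called), and its interaction with the medium was called (2.34). The leukocyte marker Ptprc was well above background on only 1 array, and whether the higher immune sums in DO bear on the interferon genes was not tested.

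Finally, the same contrast was set beside Wnt-deficient medium, where all 4 arrays come from other mice and another slide and are of passage 2. EO and DO thus differ in passage in 1 medium only, so that medium, slide, mouse and passage cannot be told apart. The difference itself differed between the media at 424 of 29423 probes (1.44%, interaction term in limma), with 243 higher and 181 lower in Wnt-proficient medium. Of the 182 probes called here, 75 were among them in the same direction. The interaction term holds the same difference by which these probes were chosen, so that this overlap follows in part from that choice. In Wnt-deficient medium 112 of the 182 had the same sign, and 25 were also called there with the same sign. Pdlim4 differed by 0.07 in Wnt-deficient medium, against -4.33 here (interaction -4.40, adjusted p = 0.00251 by limma). It was well above background there on no EO array and on 1 DO array. No difference could thus be measured there, and the term is no exact value. Krt4 fell by 4.76 there and by 3.56 here, and the media were not shown to differ at this gene (interaction 1.19, adjusted p = 0.361). For Krt8 the first probe differed by 0.36 there and its interaction of -5.06 was not called (adjusted p = 0.0662), while for the second probe, not well above background in EO, the term is no bound. Cldn4 had an interaction of -3.73 (adjusted p = 0.00324), and Lor and Krt13 had 3.20 and 2.42, since both fell in Wnt-deficient medium and were not called here.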

How the data were processed

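RNA of 8 mouse arrays was read, and the 4 in Wnt-proficient medium are described. The authors deposited spot intensity as Feature Extraction 11.5.1.1 (file header) wrote it, and a table of log2 values that was background-corrected and quantile-normalized, per the methods. The methods name a human array design, while the file headers give a mouse design with probe positions on mm9. The version of limma that the authors used is not given.

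In limma 3.58.1 (R 4.3.3, with version 1.17.8 of data.table), normexp with an offset of 50 took the median of the local background from the mean signal of each spot. Controls were dropped, as were spots marked as outliers (between 199 and 277 on the 4 arrays), the 8 arrays were quantile-normalized and put on the log2 scale, and spots of a probe were averaged. Tests used limma with 1 mean for each of 4 groups (residual degrees of freedom 4, prior 3.14), no block, and Benjamini-Hochberg adjustment over 29423 probes. The mouse labels pair 1 EO with 1 DO array, and the deviations of these pairs from the group means had a correlation of 0.137 over probes. Alternatives were the offset, the signal, the scaling, the filter, the deposited table, the arrays in the fit, the mouse as a block, the variance prior and leaving out each array or mouse.

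Of the probes described, 17619 were named through accessions, 2452 took theirs from the files and 8504 had none. A gene is given by its probe with the highest mean. Named genes are the 12 genes that rose and the 12 that fell most among those called and well above background on all 4 arrays, the 8 largest in each direction among those well above background in 1 group only, list genes that were called or beyond 1.5 in both mice, and defining markers. Others are named as chosen after their values were seen. One gene chosen by the rule is not reported here. The members and lists were chosen with earlier results of these data known. Promoters are those of RefSeq, GRCm38.p6, and 11175 of the 14900 genes matched by symbol. The fit was checked on simulated data.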

Additional observations from a re-analysis of the deposited data

Results flagged for a closer look

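The difference between EO and DO differed between the media at 424 probes, by the interaction term in limma. Some of the genes among them that are described in the report are given here with that term, which is EO minus DO in Wnt-proficient medium less the same in Wnt-deficient medium, on the log2 scale. Medium, slide, mouse and passage cannot be told apart, since the Wnt-deficient arrays are all of passage 2, and no cause was tested. Higher in Wnt-proficient medium were Krtap10-10 (3.31), Wdfy1 (2.98), Baiap2l2 (2.73), Elane (2.38) and Foxf2 (1.94), and Lor (3.20) and Krt13 (2.42), which were not called here. Lower among genes well above background on all 4 arrays were Rn18s (-4.77), Pdlim4 (-4.40), Dkk3 (-4.10), Cldn4 (-3.73), Ptprr (-3.49), Nccrp1 (-3.33) and Gsdmcl2 (-2.97). Ptprr and Gsdmcl2 were well above background on no Wnt-deficient array, and Pdlim4 on 1 DO array alone. For these genes no difference could be measured there, and their terms are no exact values. Lower among genes not well above background in EO were Mical1 (-3.52), the second probe of Krt8 (-3.47), Adamts1 (-3.42), Gsdmcl-ps (-2.57), Cadps (-2.32) and Zfp105 (-2.26), where the term is no bound. Among list genes, Aldh1a3 (-4.48), Aldh1a1 (-2.66) and the BMP-binding Fstl1 (-2.37) were lower. In Wnt-deficient medium Fstl1 was well above background on no EO array and on 1 DO array, so that its term is no exact value.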

How the results depend on the processing

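The counts of called probes depend on the processing, and the causes were not tested. Scaling each array to its 75th percentile in place of quantile normalization gave 580 (186 higher, 394 lower), and the processed signal so scaled gave 636 (163 and 473), with 235 higher and 897 lower in both mice. An offset of 16 gave 184 lower, and no filter on dim probes gave 37 higher. With 1 array left out in turn the count ranged from 2 to 759 (higher 1 to 386, lower 1 to 373), and the lone array left in a group is assumed to vary like the other groups. Without mouse 1, 138 were higher, and without mouse 2, 2 probes were called in all, 0 higher and 2 lower. Beyond 1.5 in the mouse that is left were 488 higher and 538 lower without mouse 1, and 101 and 362 without mouse 2. A limma fit of the 4 arrays alone called 0, 0 higher and 0 lower, with 6789 at an unadjusted p under 0.05, and normalizing those 4 alone called 10 (1 and 9). With the mouse as a block 178 were called, 134 of them shared with the 182, and the difference between the media was called at 268 probes in place of 424. That number ranged from 28 to 494 with 1 array left out. Of the 182 probes, 61 were called without each of at least 6 of the 8 arrays and 1 without each of all 8. A probe near background in 1 group gives only a lower bound of its fold.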
